A study of Mus musculus with 6 samples.

Results

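The genes described here are the 9 that bring glucose into skeletal muscle or move glucose-6-phosphate into the endoplasmic reticulum: the glucose carriers Slc2a4, Slc2a1, Slc2a3 and Slc2a12, the Rab GTPase-activating proteins Tbc1d1 and Tbc1d4, the carrier regulator Txnip, the glucose-6-phosphate transporter Slc37a4 and the phosphatase G6pc3. They were chosen by function, not by their values, though with earlier results of these data known. The 9 were matched by gene ID to 9 of the 51911 rows of a deposited table of fragment counts. All 9 were among the 16593 genes with enough counts to be tested. The samples were gastrocnemius muscle of male mice, either wild-type (3 libraries) or HSA-PGC-1a3 transgenic (3 libraries), profiled by bulk RNA sequencing. In the transgenic mice the HSA promoter, taken from the human skeletal actin gene and active in skeletal muscle fibres, drives PGC-1a3, an isoform of the coactivator PGC-1alpha. Age, strain, founder line and the number of animals behind each library are not given in the labels, so p-values measure the spread between these libraries, which may be technical.

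Glucose crosses the muscle cell membrane through facilitative carriers of the SLC2A (GLUT) family. In resting muscle most GLUT4 is held in intracellular vesicles, and insulin or contraction sends it to the surface by phosphorylating TBC1D1 and TBC1D4, which otherwise keep the Rab proteins of these vesicles inactive. Hexokinases then trap the sugar as glucose-6-phosphate, which enters glycolysis, glycogen or the pentose phosphate pathway, or is carried into the endoplasmic reticulum by SLC37A4 and hydrolysed there by a glucose-6-phosphatase such as G6PC3.

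The series compared the transcriptomes of the 2 genotypes. Library totals ran from 25532146 to 40846872 fragments, and a count of 3 corresponded to 0.0804 to 0.134 CPM (fragment counts relative to library size, scaled by the trimmed mean of M-values, TMM). Ppargc1a, the gene of the transgene, averaged 2930 ± 422 CPM in the transgenic libraries and 52.2 ± 1.20 CPM in those of wild type (SD, n = 3 each), so each library matched its label. Across the table, 50.7% of tested genes passed a Benjamini-Hochberg adjusted p of 0.05 in edgeR's quasi-likelihood test, 25.5% higher and 25.2% lower in transgenic muscle. Of the calls, 50.2% were higher under TMM and 85.7% were higher when libraries were scaled by their totals alone, which moved the median change across the tested genes from -0.016 to 0.38 on the log2 scale. With library totals alone, 8676 of the 16593 tested genes were called higher and 1448 lower. Counts given below for lists of genes are to be read beside these counts and the TMM shares. Log2 fold changes below are transgenic over wild type and relative to TMM scaling, with their standard error (SE).

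Of the 9 members, 4 fell (Slc2a4, Slc2a3, Slc2a12 and Slc37a4), 0 rose and 5 did not pass, against 50.7% of all genes called in either direction. The members' median log2 fold change was -0.39 and that of all tested genes -0.016. CPM ranges of the 2 genotypes were separate for 5 members, the 4 that fell and Txnip, against 59.6% of all tested genes. Slc37a4, Slc2a3 and Slc2a4 fell at least 2-fold, a change that 4.42% of tested genes showed in that direction, and 0 members rose as much, where 6.29% of tested genes did.

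**Figure D1:**
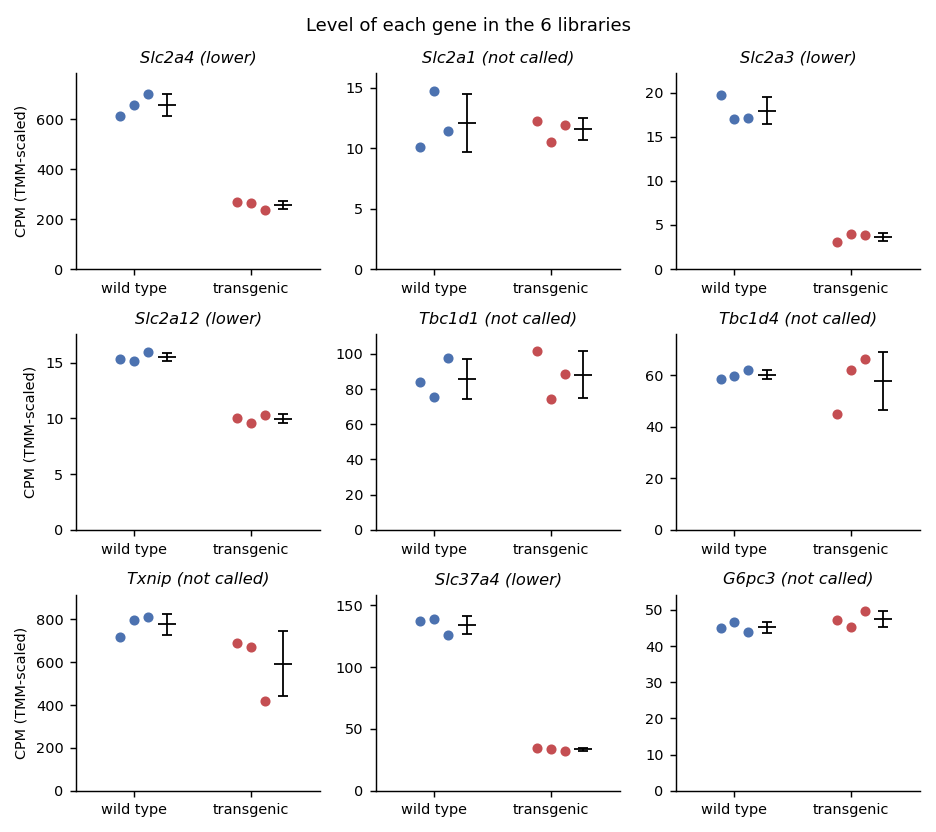
Level of each of the 9 genes in CPM (TMM-scaled, axes from 0) in the 3 wild-type (blue) and 3 transgenic (red) libraries, with the mean and SD beside each group; the call in brackets is at an adjusted p of 0.05. Slc2a4, Slc2a3, Slc2a12 and Slc37a4 are lower in transgenic muscle with no overlap, Txnip does not overlap but did not pass, and the other 4 overlap.

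Among the carriers, Slc2a4 encodes GLUT4, the insulin- and contraction-responsive carrier of muscle and fat (chromosome 11, 69942539 to 69948188, minus strand, GRCm38). Its level was 269, 264 and 236 CPM in the transgenic libraries and 611, 656 and 702 CPM in the wild-type libraries. Every transgenic library lay below every wild-type library, with a wide gap between the nearest values. Slc2a4 averaged 256 ± 17.9 CPM in the transgenic and 656 ± 45.7 CPM in wild-type muscle (SD, n = 3 each), 2.56-fold lower, with a log2 fold change of -1.36 (SE 0.08, 95% interval -1.52 to -1.19, adjusted p = 1.91e-07, edgeR). By level per kilobase of exon it stood 196th among the 16593 tested genes in wild-type muscle and 399th in transgenic muscle. With library totals alone the log2 fold change was -0.96, still lower.

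Slc2a3 encodes GLUT3, a high-affinity carrier best known from neurons and also present in leukocytes and platelets (chromosome 6, 122727809 to 122801640, minus strand). The transgenic libraries held 95, 120 and 143 counts and the wild-type libraries 456, 592 and 386. Scaled, these were 3.12, 3.998 and 3.83 CPM against 19.8, 17.0 and 17.2 CPM. The transgenic values formed a narrow low group, well apart from the wild-type values. The means were 3.65 ± 0.464 and 18.0 ± 1.52 CPM (SD, n = 3 each), 4.91-fold lower in transgenic muscle, with a log2 fold change of -2.30 (SE 0.12, 95% interval -2.55 to -2.04, adjusted p = 1.08e-07, edgeR), or -1.90 with library totals alone. In proportion this was the largest fall among the 9 members.

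Cells other than muscle fibres can carry Slc2a3. Of 13 tested markers of macrophages, neutrophils and platelets, 0 fell and 1 rose, and their summed level was 106 to 120 CPM in the transgenic and 77.8 to 128 CPM in the wild-type libraries. That none fell depends on wild-type replicate 2, the library at 77.8 CPM. Without it, 2 of the 13 were lower and 1 higher, with a median log2 fold change of -0.24. Both remaining wild-type sums, 126 and 128 CPM, lay above all transgenic sums. Of 12 tested markers of Schwann cells, perineurium and nerve, 0 were called, at a summed 322, 87.2 and 119 CPM in the transgenic and 267, 211 and 138 CPM in the wild-type libraries. The count of 0 rests on transgenic replicate 1: without it, 6 of the 12 were lower, with a median log2 fold change of -0.95, and both remaining transgenic sums lay below all wild-type sums. The part of these cells in the Slc2a3 values was not tested. No marker in these lists was at 0 in all libraries. In bulk muscle, fewer cells of a type and less RNA per cell cannot be told apart.

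Slc2a12 encodes GLUT12, a further carrier found in muscle and fat (chromosome 10, 22645011 to 22704285, plus strand). It measured 10.1, 9.56 and 10.3 CPM in the transgenic and 15.4, 15.2 and 16.0 CPM in the wild-type libraries. The libraries of each genotype agreed closely and the genotypes did not overlap. Means of 9.98 ± 0.383 and 15.5 ± 0.391 CPM (SD, n = 3 each) made it 1.55-fold lower, a log2 fold change of -0.63 (SE 0.08, 95% interval -0.81 to -0.46, adjusted p = 5.98e-05, edgeR). With library totals alone its log2 fold change was -0.24 (adjusted p = 0.0239), the smallest remaining fall of the 4 genes. Its last exon shares 407 bases with Tbpl1 on the other strand, and fragments were counted without regard to strand. Tbpl1 itself averaged 20.1 and 22.0 CPM and was not called (log2 fold change -0.14, adjusted p = 0.274, edgeR). Markers of smooth muscle and pericytes were also lower in transgenic muscle, 9 of 9 under TMM (median log2 fold change -0.62) and 4 of 9 with library totals alone. Their summed level was 643.5 to 711 CPM in the transgenic and 1018 to 1102 CPM in the wild-type libraries. Of 8 fibroblast markers 4 were lower, at 2049 to 2408 CPM against 2461 to 2875 CPM, whereas 2 passed as higher and 0 as lower with library totals alone. The part of either list in the carrier values was not tested.

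Slc2a1 encodes GLUT1, the carrier of basal uptake, abundant in endothelium and perineurium (chromosome 4, 119108711 to 119137983, plus strand). Its values were 12.2, 10.5 and 11.9 CPM in the transgenic and 10.1, 14.7 and 11.5 CPM in the wild-type libraries. The transgenic libraries all lay inside the wild-type range. The log2 fold change was -0.07 (SE 0.13, 95% interval -0.37 to 0.22, adjusted p = 0.67, edgeR), an interval that leaves out a fall as large as that of Slc2a4. With library totals alone it turned to 0.32 (adjusted p = 0.0428). The gene shares 105 exonic bases with Gm12868 on the other strand, which lay between 0.563 and 1.12 CPM in all 6 libraries.

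Endothelial and red blood cell markers were not level between the genotypes under TMM. All 13 endothelial markers were lower under TMM, at a summed 551 to 582 CPM in the transgenic and 707 to 754 CPM in the wild-type libraries, but 1 of 13 was lower with library totals alone. Of 6 tested red blood cell markers, 3 were lower under TMM and 0 were called with library totals alone, at a summed 48.3 to 51.7 CPM against 57.8 to 72.5 CPM. Their part in the Slc2a1 values was not tested.

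On the scale of CPM per kilobase of exon, the SLC2A carriers together reached 88.2, 85.9 and 78.2 in the transgenic and 190, 204 and 216 in the wild-type libraries. This sum covers the 12 SLC2A genes matched in the table, of which Slc2a7 was at 0 counts in every library. All transgenic sums were below all wild-type sums, and Slc2a4 made up most of each. Slc2a4 held 87.6 ± 0.775% of the sum in the transgenic and 92.9 ± 0.449% in wild-type muscle (SD, n = 3 each). Slc2a1 held 3.93 ± 0.427% against 1.70 ± 0.319%, and the intracellular carrier Slc2a8 3.91 ± 0.131% against 1.92 ± 0.118%. Slc2a3 went the other way, from 1.23 ± 0.181% in wild-type to 0.602 ± 0.0997% in transgenic muscle. These shares are descriptions of transcript levels and say nothing of carrier protein at the cell surface.

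The ratio of Slc2a1 to Slc2a4 within each library does not depend on the scaling. On the log2 scale, per length, it was -4.47, -4.66 and -4.32 in the transgenic and -5.93, -5.49 and -5.95 in the wild-type libraries. The basal carrier stood closer to the insulin-responsive one in each transgenic library than in any wild-type library. The difference was 1.31 (exact two-sided permutation test, p = 0.1, adjusted p = 0.133 over 4 ratios). With 3 libraries against 3, p = 0.1 is the smallest value this exact test can give.

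Of 8 other tested genes of the SLC2A, SLC5A and SLC45A carrier families, 1 rose and 2 fell, with a median log2 fold change of -0.26. With library totals alone 2 rose and 0 fell. Slc45a4 fell by 0.44 (SE 0.06) on the log2 scale, and -0.04 remained with library totals alone. Slc2a8, GLUT8, changed by -0.24 on the log2 scale (SE 0.09, adjusted p = 0.0343, edgeR), which under library totals alone became 0.15 and did not pass. Slc5a10, a sodium-coupled carrier, rose by 1.53 (SE 0.44), yet its transgenic mean was 0.560 CPM and it shares 393 exonic bases with Fam83g.

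**Figure D2:**
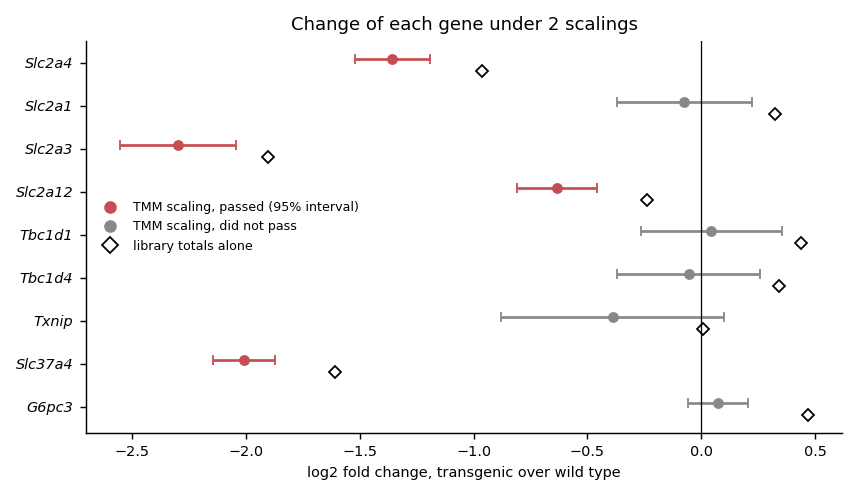
Log2 fold change of each of the 9 genes, transgenic over wild type. Circles with 95% intervals are TMM-scaled (red where the adjusted p passed 0.05, grey where not), and open diamonds give the value with library totals alone. Slc2a4, Slc2a3, Slc2a12 and Slc37a4 lie below 0 under both scalings, while Slc2a1 and Tbc1d4 lie just below 0 under TMM and above 0 with library totals, and Txnip moves from -0.39 to 0.007.

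TBC1D1 and TBC1D4 (AS160) are paralogous Rab GTPase-activating proteins that hold GLUT4 vesicles back until Akt or AMP-activated kinase phosphorylates them. Tbc1d1 (chromosome 5, 64156305 to 64351486, plus strand) measured 101, 74.6 and 88.6 CPM in the transgenic and 84.1, 75.5 and 97.7 CPM in the wild-type libraries. Tbc1d4 (chromosome 14, 101442360 to 101609191, minus strand) measured 45.1, 62.1 and 66.3 CPM against 58.6, 59.7 and 62.0 CPM. For both genes the transgenic libraries spread on either side of the wild-type range. The log2 fold change was 0.04 for Tbc1d1 (SE 0.13, 95% interval -0.27 to 0.35, adjusted p = 0.811) and -0.05 for Tbc1d4 (SE 0.13, 95% interval -0.37 to 0.26, adjusted p = 0.762, edgeR). Both intervals leave out a fall of the size seen for Slc2a4. With library totals alone Tbc1d1 passed as higher (0.44, adjusted p = 0.035), and Tbc1d4 was 0.34 without passing (adjusted p = 0.0653).

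The log2 ratio of Tbc1d1 to Tbc1d4 was 1.22, 0.32 and 0.47 in the transgenic and 0.57, 0.39 and 0.71 in the wild-type libraries. Transgenic replicate 1 stood apart, with the highest Tbc1d1 and the lowest Tbc1d4 of the 6 libraries. The difference between genotypes was 0.11 (exact two-sided permutation test, p = 0.9). It turned to -0.16 without that library (exact permutation test, p = 0.3). The same library had the highest summed level of the nerve and Schwann cell markers, 322 CPM, and their part in the ratio was not tested.

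The machinery that these GAPs act on was mixed. Of 28 tested small GTPases of GLUT4 traffic and their regulators, 11 rose and 8 fell (median 0.07), or 21 and 4 with library totals alone. The 4 with the smallest p-values all fell under both scalings. Rab12 had a log2 fold change of -1.12 (SE 0.06), and Rhoq, which encodes the GTPase TC10, -1.01 (SE 0.05). Rab10, a Rab that AS160 acts on, had -0.68 (SE 0.06) and Rab28 -0.61 (SE 0.06). Rab10 averaged 359 ± 7.81 CPM in the transgenic and 575 ± 21.7 CPM in wild-type muscle (SD, n = 3 each). Rhoq shares 312 exonic bases with Pigf and Rab10 143 with Rab10os, on the other strand.

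Of 15 tested proteins that ride in or tether GLUT4 vesicles, 4 rose and 5 fell (median -0.016), or 8 and 1 with library totals alone. Aspscr1 encodes TUG, a tether that retains GLUT4 vesicles inside the cell. It measured 51.0, 50.3 and 54.5 CPM in the transgenic and 23.7, 29.7 and 23.2 CPM in the wild-type libraries. All transgenic values were above all wild-type values, a log2 fold change of 1.02 with SE 0.09 (adjusted p = 7.87e-06, edgeR), though the gene shares 355 exonic bases with Gm17178. The adaptor Gga2 rose by 0.43 (SE 0.07), and the vesicle SNAREs Vamp7 and Vamp8 had log2 fold changes of -0.71 (SE 0.11) and -0.56 (SE 0.09). Vamp8 was -0.16 and did not pass with library totals alone.

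Of 26 tested genes of docking, fusion and motor function at the membrane, 11 rose and 4 fell (median 0.14), or 21 and 0 with library totals alone. Pak1, a kinase of actin remodelling in insulin-stimulated uptake, rose from 22.5 ± 2.003 CPM in wild-type to 68.9 ± 4.65 CPM in transgenic muscle (SD, n = 3 each), a log2 fold change of 1.61 (SE 0.08). The exocyst subunit Exoc6b rose by 0.80 (SE 0.07) and the syntaxin Stx16 by 0.68 (SE 0.06), while Stx6 had a log2 fold change of -0.49 (SE 0.09) that was -0.09 with library totals alone. Syntaxin 16 and syntaxin 6 act in sorting GLUT4 back into its storage vesicles.

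Of 32 tested genes of the insulin and contraction signals to the GAPs, 5 rose and 10 fell (median -0.083), or 18 and 4 with library totals alone. Prkab2, a regulatory subunit of AMP-activated kinase that is prominent in skeletal muscle, measured 150.1, 167 and 153 CPM in the transgenic and 625, 553 and 552 CPM in the wild-type libraries. The genotypes were far apart, at a log2 fold change of -1.88 with SE 0.07 (adjusted p = 2.48e-08, edgeR). The catalytic subunit Prkaa2 had -0.93 (SE 0.06) and the insulin receptor gene Insr -0.65 (SE 0.05), both lower under both scalings. Other subunits of AMP-activated kinase differed: Prkaa1 (0.25) and Prkab1 (0.38) passed as higher, Prkag3 (-0.63) passed as lower, and Prkag1 and Prkag2 did not pass. Prkcz, which encodes the atypical protein kinase C zeta, rose from 1.11 ± 0.226 CPM in wild-type to 12.0 ± 0.898 CPM in transgenic muscle (SD, n = 3 each; log2 fold change 3.43, SE 0.15).

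Txnip encodes an arrestin-fold protein that binds thioredoxin and promotes removal of GLUT1 and GLUT4 from the cell surface (chromosome 3, 96557957 to 96561883, plus strand). It is known as a target of the glucose-sensing factors MondoA (Mlxip) and ChREBP (Mlxipl), which bind a carbohydrate response element with their partner MLX. The RefSeq promoter table (GRCm38.p6) held windows for 7 of the 9 members, and none for Slc2a4 or Slc2a3. The 250 bases before the Txnip start are shown because this element lies in them. Capitals mark the carbohydrate response element (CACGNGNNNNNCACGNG), the GC box (GGGCGG) or the E-box (CACGTG), each searched on both strands; the response element can overlap an E-box.
Txnip, chr3:96557707-96557956, plus strand: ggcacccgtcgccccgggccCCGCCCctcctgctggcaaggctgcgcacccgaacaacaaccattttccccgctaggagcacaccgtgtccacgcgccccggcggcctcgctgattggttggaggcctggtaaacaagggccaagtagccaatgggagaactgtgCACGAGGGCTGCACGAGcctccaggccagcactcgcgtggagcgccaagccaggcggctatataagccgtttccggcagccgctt
The response element begins 85 bases before the start and was found in 15 of 32851 promoter windows of the same length (0.0457%). A match is a description of letters, not of binding.

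Txnip measured 691, 669 and 418 CPM in the transgenic and 719, 798 and 811 CPM in the wild-type libraries. The genotypes did not overlap, but transgenic replicates 1 and 2 lay just under the lowest wild-type library and replicate 3 far under it. The means were 593 ± 152 and 776 ± 49.6 CPM (SD, n = 3 each), and the log2 fold change of -0.39 did not pass (SE 0.20, 95% interval -0.88 to 0.10, adjusted p = 0.157, edgeR). Without transgenic replicate 3 the log2 fold change was -0.18 (adjusted p = 0.0737), and with library totals alone it was 0.007 (adjusted p = 0.981). Gm15441, a noncoding gene on the other strand that shares 606 exonic bases with Txnip, measured 161, 158 and 99.95 CPM against 166, 185 and 188 CPM, also lowest in transgenic replicate 3. Without strand in the counting, reads of these overlapping genes cannot be told apart where they share exons.

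Among 12 tested partners, relatives and regulators of Txnip, 3 rose and 6 fell (median -0.16), or 6 and 3 with library totals alone. Arrdc4, an arrestin-domain relative and another known MondoA target, measured 7.04, 7.93 and 8.63 CPM in the transgenic and 14.1, 18.4 and 13.9 CPM in the wild-type libraries. All 3 transgenic libraries were below the wild-type range, a log2 fold change of -0.98 with SE 0.13 (adjusted p = 8.15e-05, edgeR). Arrdc3, another relative, went the other way at 36.6, 40.9 and 64.5 CPM against 28.5, 27.7 and 25.2 CPM (log2 fold change 0.81, SE 0.24, adjusted p = 0.038), with transgenic replicate 3 highest.

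Mlxip, the MondoA gene, averaged 82.4 ± 2.93 CPM in the transgenic and 133 ± 2.67 CPM in wild-type muscle (SD, n = 3 each), a log2 fold change of -0.69 (SE 0.05), and shares 267 exonic bases with Gm15747. Txnrd1, which encodes the reductase of cytosolic thioredoxin, had -0.80 (SE 0.07), and Itch, a ubiquitin ligase that targets TXNIP, -0.48 (SE 0.06). Mlxip, Txnrd1 and Arrdc4 stayed lower with library totals alone, and Itch was -0.09 without passing.

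Slc37a4 and G6pc3 act in sequence in the endoplasmic reticulum, as transporter and phosphatase, and loss of either is known to impair neutrophils. The bases before each gene's annotated start are shown because Slc37a4 fell and its partner did not pass. Only sequence upstream of the first annotated exon is printed, with capitals as above.
Slc37a4, chr9:44396696-44396851, plus strand: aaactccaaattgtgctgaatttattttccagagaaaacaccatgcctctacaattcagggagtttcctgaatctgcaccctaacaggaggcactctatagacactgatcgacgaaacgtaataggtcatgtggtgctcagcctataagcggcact
G6pc3, chr11:102189449-102189619, plus strand: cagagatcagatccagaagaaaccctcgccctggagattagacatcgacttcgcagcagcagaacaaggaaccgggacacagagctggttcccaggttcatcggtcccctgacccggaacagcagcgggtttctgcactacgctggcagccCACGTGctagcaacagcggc
The printed G6pc3 stretch holds an E-box, and its RefSeq window holds 2, at 99 and 79 bases before the RefSeq start; 6.02% of all windows hold at least 1. The printed Slc37a4 bases hold none of the 3 motifs. Of the 3 RefSeq windows of Slc37a4, 2 hold GC boxes downstream of the printed bases (1 and 3 matches, 1 site being in both windows) and 1 holds 0; 32.7% of all windows hold at least 1. An oestrogen-related receptor element (TNAAGGTCA, in 1.14% of windows) and the MEF2 site (2.92%) matched in 0 windows of the 7 members searched. This says only that these letters are not there. A link between any of these motifs and the change or lack of change in level was not tested. Slc2a4 and Slc2a3 had no window, so their promoters were not searched.

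Slc37a4 (chromosome 9, 44396852 to 44402968, plus strand) measured 34.3, 33.8 and 32.0 CPM in the transgenic and 138, 139 and 126 CPM in the wild-type libraries. The libraries of each genotype lay close together, with a wide gap between the genotypes. The means of 33.4 ± 1.19 and 134 ± 7.15 CPM (SD, n = 3 each) differed 4.02-fold (adjusted p = 1.32e-08, edgeR), and the p-value was the 5th smallest of the 16593 tested. With library totals alone the log2 fold change was -1.61.

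G6pc3 (chromosome 11, 102189620 to 102194081, plus strand) measured 47.3, 45.4 and 49.8 CPM in the transgenic and 44.9, 46.8 and 43.8 CPM in the wild-type libraries. The ranges overlapped. Its log2 fold change of 0.07 did not pass (SE 0.06, 95% interval -0.06 to 0.20, adjusted p = 0.342, edgeR), and the narrow interval bounds any change well below that of Slc37a4. With library totals alone G6pc3 was higher (0.47, adjusted p = 3.12e-05).

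Within each library, the log2 ratio of Slc37a4 to G6pc3 per length was -0.82, -0.78 and -0.998 in the transgenic and 1.25, 1.21 and 1.16 in the wild-type libraries. The sign itself differed: the transporter transcript exceeded the phosphatase transcript in every wild-type library and was below it in every transgenic library. Back-transformed, the mean ratio was 2.31 in wild-type and 0.548 in transgenic muscle, a log2 difference of -2.08 (exact two-sided permutation test, p = 0.1, the smallest possible, adjusted p = 0.133).

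**Figure D3:**
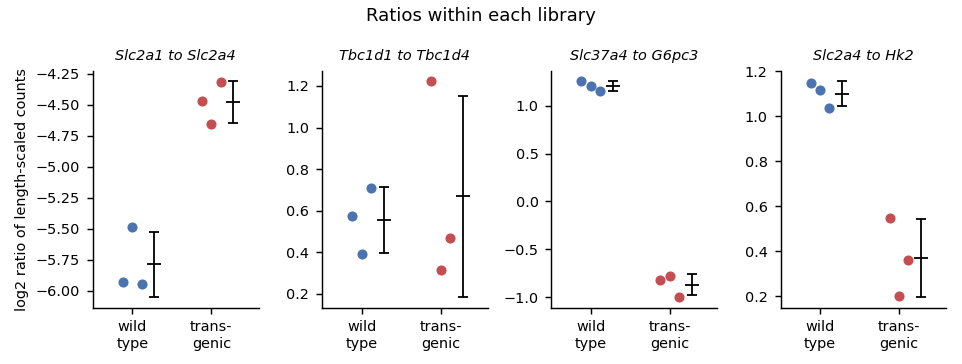
Log2 ratios of length-scaled counts within each library for 4 gene pairs, in wild-type (blue) and transgenic (red) libraries, with mean and SD; each panel has its own axis, which does not start at 0. The ratios of Slc2a1 to Slc2a4, Slc37a4 to G6pc3 and Slc2a4 to Hk2 do not overlap between genotypes, while Tbc1d1 to Tbc1d4 overlaps and has transgenic replicate 1 highest.

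Of 10 other tested genes that move or use glucose-6-phosphate, 3 rose and 4 fell (median 0.05), or 4 and 2 with library totals alone. Gpi1, which converts glucose-6-phosphate to fructose-6-phosphate, had a log2 fold change of -1.58 (SE 0.06), and Pgm1, which links it to glycogen through glucose-1-phosphate, -1.17 (SE 0.06). Pgls (0.74, SE 0.08) and Pgd (0.35, SE 0.07), of the pentose phosphate pathway, rose, while G6pdx, its entry enzyme, did not pass at 4.06 ± 0.329 against 3.86 ± 1.21 CPM (SD, n = 3 each). Each of Gpi1, Pgm1, Pgls and G6pdx shares exons with another gene, by 741, 398, 776 and 418 bases.

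H6pd, the dehydrogenase that uses glucose-6-phosphate inside the endoplasmic reticulum, measured 67.5, 69.9 and 75.2 CPM in the transgenic and 86.5, 76.0 and 90.7 CPM in the wild-type libraries. The genotypes met without overlapping. Its log2 fold change of -0.25 (SE 0.07, adjusted p = 0.0148, edgeR) became 0.14, not called, under library totals alone. The Slc37a4 paralogs differed: Slc37a3 had -0.49 (SE 0.09), Slc37a2 rose by 1.10 (SE 0.24) from 1.10 to 2.34 CPM, and Slc37a1 did not pass (0.18, SE 0.39, adjusted p = 0.722). Slc37a3 was -0.09 and did not pass with library totals alone. The liver and islet phosphatase genes G6pc and G6pc2 had too few counts to test.

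The hexokinases, which receive the glucose that the carriers bring in, did not move together. Hk2, the main insulin-responsive hexokinase of muscle, measured 317, 393 and 316 CPM in the transgenic and 474, 520.0 and 588 CPM in the wild-type libraries. All transgenic values were below all wild-type values, a log2 fold change of -0.62 with SE 0.11 (adjusted p = 0.000834, edgeR), though with library totals alone it was -0.23 and did not pass (adjusted p = 0.0943). Hk1, the housekeeping hexokinase, measured 23.2, 23.4 and 27.1 CPM against 12.7, 12.5 and 11.6 CPM and rose (log2 fold change 1.003, SE 0.09), with 157 exonic bases shared with Hk1os.

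Carrier and kinase were also compared within each library. The log2 ratio of Slc2a4 to Hk2 per length was 0.55, 0.20 and 0.36 in the transgenic and 1.15, 1.11 and 1.04 in the wild-type libraries. No transgenic ratio reached the wild-type range, and the difference was -0.73 (exact two-sided permutation test, p = 0.1, the smallest possible, adjusted p = 0.133). Back-transformed, the mean ratios were 1.29 and 2.14.

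A list of factors around the Slc2a4 promoter, which also held deacetylases and a pseudogene, had 18 tested genes (Ppargc1a set aside). Of these, 3 rose and 9 fell (median -0.22), or 8 and 2 with library totals alone. Srebf1 had a log2 fold change of -1.02 (SE 0.11) and the thyroid hormone receptor gene Thra -0.64 (SE 0.07), with 263 exonic bases shared with Nr1d1. Nfic had -0.49 (SE 0.07) and Mef2d -0.41 (SE 0.06), and these were -0.10 and -0.01 with library totals alone, where neither passed. GLUT4 is also made by adipocytes, and 2 of 9 tested adipocyte markers fell under TMM and 0 were called with library totals alone. The summed adipocyte level was 187, 149 and 157 CPM in the transgenic and 386, 211 and 196 CPM in the wild-type libraries. The list median of -1.24 on the log2 scale rested on wild-type replicate 1, the library at 386 CPM. Without that library the median was 0.22, with 2 markers still lower.

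Most fast-fibre genes were lower, as Slc2a4 was. Of 10 tested fast-fibre genes 9 fell (8 with library totals alone) and 1, Myh1, named after its values were seen, rose (log2 fold change 1.07, adjusted p = 0.0349, edgeR). They stood at a summed 79540 to 81610 CPM against 154100 to 162900 CPM. Among 10 slow or oxidative fibre genes 0 were called (3 higher with library totals alone), at 6866 to 8482 CPM against 6109 to 9218 CPM. The slow list had a median log2 fold change of 0.49, which varied with the libraries kept. Dropping wild-type replicate 2 gave 1.07 with 1 gene higher, and dropping transgenic replicate 2 gave 0.15 with 1 lower. Dropping both, a choice made after seeing the data, gave 0.88 with 3 higher and 1 lower. The part of fast or slow fibre genes in the carrier values was not tested.

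Hypoxia is a known inducer of Slc2a1 and Slc2a3. Of 12 tested regulators and targets of that response, 3 rose and 4 fell (median 0.07), or 7 and 2 with library totals alone. Hif1a rose by 0.46 (SE 0.07), while Epas1 had -0.49 (SE 0.09), Egln1 -0.69 (SE 0.07) and Bnip3 -0.82 (SE 0.07) on the log2 scale. Epas1 was -0.10 and did not pass with library totals alone.

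**Figure D4:**
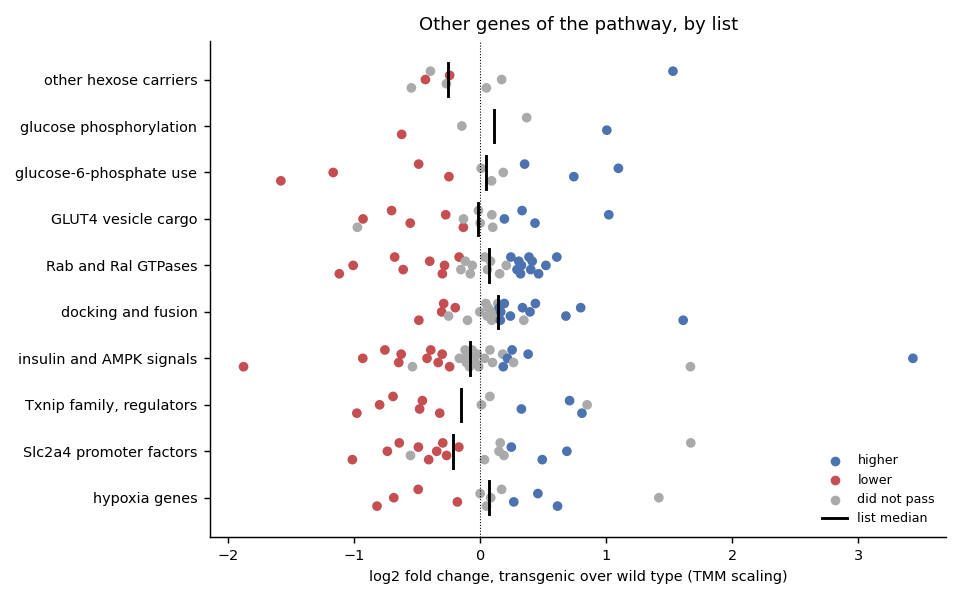
Log2 fold change (transgenic over wild type, TMM scaling) of each tested gene of 10 lists around glucose uptake, 1 point a gene, blue where higher, red where lower and grey where it did not pass; vertical positions within a list carry no value and black bars are list medians. Prkab2 at -1.88 and Prkcz at 3.43 are the extremes, and each list median lies between -0.26 and 0.14, against -0.016 for all genes. With library totals alone all 10 medians were above 0, and that of all genes was 0.38.

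By level per kilobase of exon, the order of the 9 members in wild-type muscle was Txnip (248), Slc2a4 (189), Slc37a4 (46.9), G6pc3 (20.3), Tbc1d1 (11.6), Tbc1d4 (7.83), Slc2a12 (3.66), Slc2a1 (3.45) and Slc2a3 (2.48), in CPM per kilobase. The neighbours Slc2a12 and Slc2a1 overlapped between libraries, and no other pair of neighbours did. In transgenic muscle Slc37a4 dropped from the 3rd to the 5th place at 11.7 CPM per kilobase, where it overlapped Tbc1d1 at 11.9. Slc2a1 (3.297) then stood above Slc2a12 (2.36) without overlap, and Slc2a3 stayed last at 0.504.

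In the authors' deposited table of their own comparison, the log2 fold changes were -1.36 for Slc2a4, -2.29 for Slc2a3, -0.68 for Slc2a12, -2.03 for Slc37a4 and -0.62 for Hk2. The authors' deposited table lists 3614 genes, none with an absolute log2 fold change under 0.585, and the other 5 members are not among them.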

How the data were processed

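RNA of gastrocnemius muscle was sequenced in 3 transgenic and 3 wild-type libraries. Alignment used STAR 2.5.0a (GRCm38.p6) and counting featureCounts 2.0.0, and the genotypes were compared with DESeq2, per the submitters' processing notes. Counting ignored strand, and fragments overlapping more than 1 gene were given to each, per the file headers. The deposited counts are raw fragments per gene. The authors' deposited comparison gives a log2 fold change, a p-value and its adjusted form for each listed gene.

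Gene names, positions, exon lengths and overlaps came from GENCODE M21 (GRCm38), which matched 51718 of 51911 IDs. In R 4.3.3, genes passing filterByExpr were scaled by TMM and tested in edgeR 4.0.16 (robust quasi-likelihood F test, genotype alone), with Benjamini-Hochberg adjustment over all 16593 genes. The biological coefficient of variation was 10.7%. SE was taken as the absolute log2 fold change over the square root of F. Ratios used exact permutation over libraries. No library duplicated another of its genotype: chi-square values per degree of freedom lay between 10.8 and 26.1. On simulated data with known changes (16444 genes) the fit recovered 56.2% of 1.5-fold, 82.3% of 2-fold and 98.4% of 4-fold changes, and 17 of its 172 calls were false. The simulation was set to change only 200 genes, whereas 50.7% of tested genes were called here, so these rates may not carry over. Lists are described by counts and medians. 1 gene of these lists is not reported here. From each pathway list up to 4 called genes by smallest p were named, and Hk1, Hk2, H6pd, Arrdc3, Arrdc4, Mlxip, Slc37a1 to Slc37a3 and G6pdx in any case. Slc2a7, Pgd, G6pc, G6pc2, Prkaa1, Prkab1, Prkag1, Prkag2 and Prkag3 were named after their values were seen. Members and lists were chosen with earlier results of these data known. Alternatives were DESeq2 1.42.0, RLE and upper-quartile factors, library totals alone, 2 other low-count filters, limma-voom (limma 3.58.1), no robust estimation, a replicate block, a pseudocount of 0.5 for ratios, and each library left out.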

Additional observations from a re-analysis of the deposited data

How the results depend on the processing

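The falls of Slc2a4, Slc2a3, Slc2a12 and Slc37a4 kept their direction and their call in each of 16 alternatives, with log2 fold changes of -1.41 to -0.96, -2.40 to -1.90, -0.66 to -0.24 and -2.06 to -1.61. Library totals alone raised the members called from 4 to 7 (3 higher, 4 lower). Slc2a1 turned to 0.32, and Tbc1d1 (0.44) and G6pc3 (0.47) were called higher. The TMM factors were 1.146 to 1.148 in the transgenic and 0.851 to 0.885 in the wild-type libraries. Leaving them out raised the log2 fold changes of all 9 members by a similar amount. Why the factors differed between the genotypes was not tested. No other alternative changed a member's call. Leaving out each library in turn kept 4 members called and gave 7449 to 7888 genes in the whole table, with ratio differences of 1.22 to 1.46 (Slc2a1 to Slc2a4), -2.12 to -2.01 (Slc37a4 to G6pc3), -0.82 to -0.65 (Slc2a4 to Hk2) and -0.163 to 0.289 (Tbc1d1 to Tbc1d4), the last reversed without transgenic replicate 1. The replicate block called 4 members and 8331 genes, and the paired sign-flip test gave p = 1 for Tbc1d1 to Tbc1d4 and p = 0.25 for each of the other 3 ratios (exact). Same-numbered libraries correlated at 0.101, -0.0884 and -0.21 in their deviations, which shows no pairing by number but cannot exclude one with 3 libraries a genotype. Removing both libraries numbered 2 was chosen after seeing the data and left the same 4 members called. Among list counts, 28 moved by more than 1.5 times across the alternatives, mostly cell-type markers. With 3 libraries a genotype, no exact test of a ratio can pass 0.05, and depth does not tell transcript from protein.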
